A study of Canis lupus familiaris with 4 samples.

Results

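P114 and CMT-U27 are canine mammary cancer cell lines, and their cancer stem-like cells were compared here as they grew alone, without macrophages. The comparison rests on 4 of the 8 channels of 4 arrays: the 2 single-culture channels of P114 and the 2 of CMT-U27. In both lines the cells had been sorted by flow cytometry for Sca1, EpCAM and CD44, were kept in RPMI medium with fetal bovine serum, and gave total RNA on day 3. The other 4 channels hold RNA of the same sorted cells grown beside tumour-associated macrophages. They entered the normalisation between arrays, a fit over all 8 channels, some alternative settings and values set side by side. That fit gives the adjusted p printed for single genes. Each array carried both cultures of a line in opposite dyes. Single-culture RNA was in Cy5 on P114 replicate 1 and CMT-U27 replicate 2, and in Cy3 on P114 replicate 2 and CMT-U27 replicate 1, so each line was read once in each dye. The labels call the arrays of a line biological replicates but do not say whether their RNA came from separate cultures. The spread behind the p-values may therefore be technical. It is shared between probes, and in the 8-channel fit it also draws on the co-culture channels. That fit used 1 correlation between the channels of a spot, 0.938, for all probes. Each group is 1 line, so the comparison is between 2 lines and not between kinds of mammary cancer.

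Mammary epithelium has an inner luminal layer and an outer basal, myoepithelial layer. Epithelial cells are held together by E-cadherin, claudins and desmosomes and are filled with keratin filaments, whereas mesenchymal cells carry N-cadherin and vimentin filaments and lay down fibrillar matrix. Carcinoma lines lie along this range, and transcription factors such as SNAI2 and ZEB1 (which repress epithelial genes) and GRHL, EHF and OVOL factors (which maintain them) mark its ends. CD44 is a hyaluronan receptor and EpCAM an epithelial adhesion molecule, and both are used to sort mammary stem-like cells.

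The array, an Agilent canine design, reads each transcript with 60-base probes that its files place on the CanFam3.1 assembly. The sequences below are the leading 30 bases, 5′ to 3′, of 8 probes on which the main contrasts rest: epithelial adhesion and keratin (EPCAM, CDH1, KRT19), mesenchymal filament and cadherin (VIM, CDH2), and the widest differences in each direction (DPYSL3, LIPA, MGST1).
EPCAM: ctcatccatttgtgattgagagctgccttt
CDH1: tggttctgaacaaggagcattgaccagaaa
KRT19: atgtgcgtgcggacactgaacggcagaacc
VIM: cacctgcgaagtggatgcactcaaagggac
CDH2: taccagaatataaatgatacacctctgacc
DPYSL3: gctgtttggtttgaaccgtgaagaaaactg
LIPA: ctttgtaacactgaaaaggtcttattggaa
MGST1: ggggccaacagtctgaatatcaacatcacc
The EPCAM probe lies at chr10:49498590-49498649 on the plus strand, CDH1 at chr5:80758331-80758390 on the minus strand, KRT19 at chr9:21244541-21244600 on the plus strand and CDH2 at chr7:60950417-60950476 on the plus strand. The VIM probe spans chr2:19673827-19674236 on the minus strand, so its 60 bases are split in the genome. DPYSL3 lies at chr2:41687779-41687838 on the minus strand, LIPA at chr26:38892776-38892835 on the minus strand and MGST1 at chr27:30370773-30370832 on the minus strand. The full probes hold between 35.0% G and C (EPCAM, LIPA) and 55.0% (KRT19). Exon and untranslated region boundaries were not used here.

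Values are log2 intensities after normalisation, so 1 unit is a 2-fold difference, and levels of different probes are not compared. Of 43603 gene probes, 27905 were tested after a filter on brightness, and these covered 10258 named genes. On P114 replicate 1, 91.7% of spots were marked well above background, against 57.9% to 64.5% on the other 3 arrays, so this mark separates dim genes poorly on that array. The 2 P114 channels correlated with Pearson's r = 0.955 across probes, the 2 CMT-U27 channels with r = 0.987, and channels of different lines with r between 0.851 and 0.883. More than 2-fold apart were 23.1% of probes between the P114 channels and 3.56% between the CMT-U27 channels. Between the lines, the share was 26.8% and 28.4% for P114 replicate 2 against CMT-U27 replicates 1 and 2. For P114 replicate 1 it was 40.1% and 42.3%. By this measure the P114 channels thus differed from each other nearly as often as P114 replicate 2 differed from CMT-U27. All arrays are from 1 slide, but each line's arrays were scanned at a time of their own, so scan and line cannot be told apart. With 2 arrays a line, an exact two-sided permutation test cannot go below p = 0.333, so the tests below rest on limma models that share the spread between probes of like brightness.

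The lines differed over much of the array. With limma and a dye term, 12035 probes (43.1%) passed an adjusted p of 0.05, 5597 higher in P114 and 6438 higher in CMT-U27, and of these 2733 and 3324 differed at least 2-fold. By gene, each read by its brightest tested probe, 2242 of 10258 (21.9%) were higher in P114 and 2756 (26.9%) in CMT-U27, and the median difference over all genes, P114 minus CMT-U27, was -0.11. These counts depend on how spread is shared: this fit leaves 1 residual degree of freedom a probe and takes the spread almost wholly from other probes. In a fit over all 8 channels a probe's own spread weighs more. It called 1790 probes higher in P114 and 2080 in CMT-U27 (696 and 927 genes). Of its 3870 calls, 3863 were also calls of the 4-channel fit in the same direction. Both fits read the lines from the same single-culture channels and gave nearly the same differences, so their shared direction is not separate support. Without a trend of spread on brightness no probe passed in limma, while 8982 had an unadjusted p under 0.05. The text therefore gives calls of the 4-channel fit, followed for lists by the calls of the 8-channel fit, and prints for single genes the adjusted p of the 8-channel fit. Standard errors (SE) are those of the 4-channel fit. An SE and the adjusted p beside it thus come from different fits, and the SE is not the precision behind that p. The differences themselves are nearly unaffected by this choice, and genes named below kept their direction when P114 replicate 1 was left out unless stated.

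**Figure D1:**
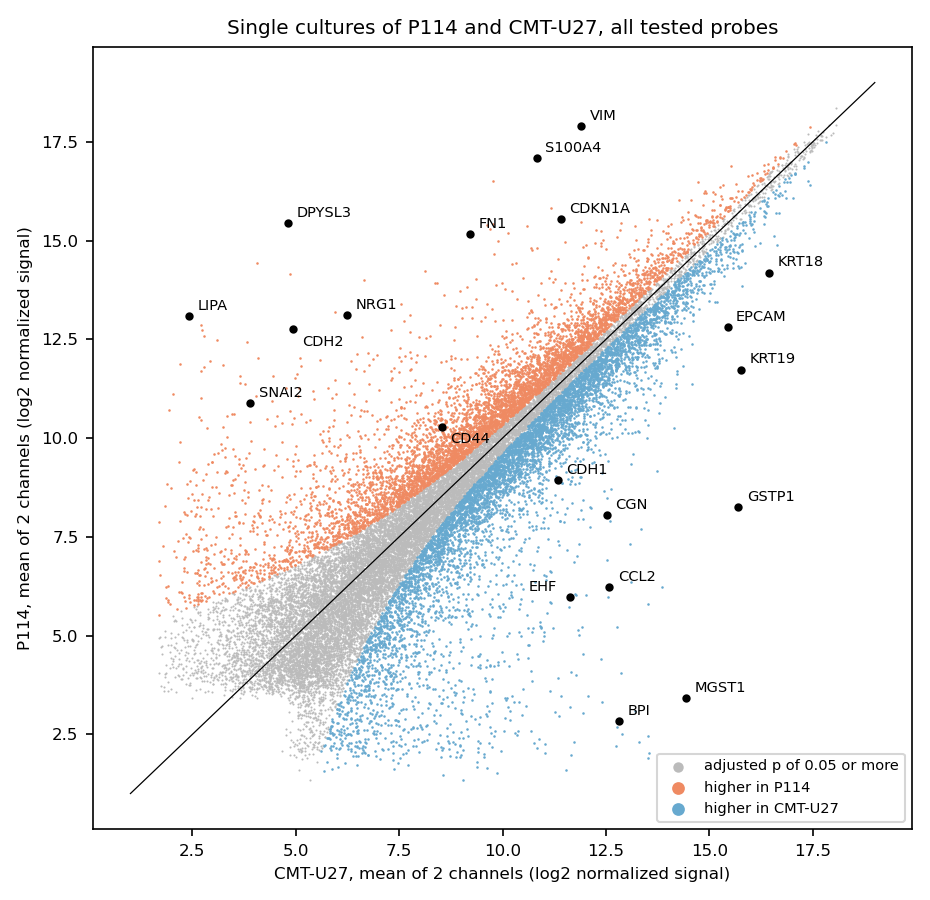
Log2 intensity of each tested probe in CMT-U27 (horizontal) against P114 (vertical), each the mean of 2 single-culture channels, with the diagonal marking equal signal, orange and blue points called higher in P114 and CMT-U27, and named genes in black. VIM, CDH2 and DPYSL3 lie far above the diagonal, whereas EPCAM, KRT19, GSTP1 and MGST1 lie below it.

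Both lines carried the epithelial sort marker EPCAM, but EPCAM and most epithelial junction genes were higher in CMT-U27. Of 24 tested epithelial junction genes, 17 were higher in CMT-U27 and 3 in P114 (13 and 1 in the 8-channel fit), with a median difference of -2.10 beside -0.11 over all genes. Over all genes tested, 26.9% were called higher in CMT-U27 and 21.9% in P114, and the counts of this and later lists are read against those shares. EPCAM read 12.72 and 12.89 on P114 replicates 1 and 2 and 15.53 and 15.34 on CMT-U27 replicates 1 and 2, 6.19-fold higher in CMT-U27 (SE 0.10 on the log2 scale, adjusted p = 0.00186), and its 3 probes differed by -2.63 to -2.33. E-cadherin (CDH1), the core of the adherens junction, read 9.12 and 8.75 in P114 and 11.42 and 11.26 in CMT-U27, a 5.30-fold difference (SE 0.15, adjusted p = 0.0452). Both genes were thus well above background in every channel of both lines, and in neither did the lines overlap. Cingulin (CGN), a tight junction scaffold, was 22.4-fold higher in CMT-U27 (8.04 ± 0.25 in P114, 12.53 ± 0.03 in CMT-U27, SD, n = 2, adjusted p = 0.000364). Claudin-1 (CLDN1), a tight junction strand protein, was 14.5-fold higher (8.26 ± 0.40 and 12.12 ± 0.11, adjusted p = 0.00129). The exception with the widest difference, CTNNA1, was named after its values were seen: alpha-catenin, which ties cadherins to actin, read 10.83 and 11 in P114 and 7.75 and 7.56 in CMT-U27, 9.56-fold higher in P114, and its 3 probes were all higher there (2.37 to 3.26).

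Of the keratins, KRT14, KRT15, KRT18 and KRT19 were higher in CMT-U27, across luminal and basal kinds. Keratin 19 (KRT19), a keratin of simple epithelium, read 11.67 and 11.79 in P114 and 15.58 and 15.94 in CMT-U27, 16.3-fold higher in CMT-U27 (SE 0.10, adjusted p = 0.00104). Keratin 18 (KRT18), also of simple epithelium, read 14.18 and 14.19 against 16.49 and 16.41, a 4.80-fold difference. The basal keratins KRT14 and KRT15 were 5.98-fold and 8.16-fold higher in CMT-U27, with adjusted p = 0.00878 and 0.00119. KRT5, the usual partner of KRT14, did not pass the test (8.87 ± 0.16 in P114, 9.12 ± 0.13 in CMT-U27, SD, n = 2). The luminal and basal marker lists as wholes went different ways. Of 15 tested luminal genes, 6 were higher in CMT-U27 and 3 in P114 (4 and 3 in the 8-channel fit; 9 and 3 without P114 replicate 1), with a median of -0.54. Of 17 tested basal genes, 9 were higher in P114 and 2, both keratins, in CMT-U27 (5 and 2 in the 8-channel fit), with a median of 0.50. Caveolin-1 (CAV1), a membrane scaffold of myoepithelial cells, was 5.07-fold higher in P114, and ITGA6, a laminin receptor subunit, 4.15-fold higher, with all 3 of its probes called.

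The 3 luminal genes higher in P114 were GATA3, MUC1 and the progesterone receptor. GATA3, a transcription factor of luminal cells, was 7.76-fold higher in P114 (9.96 ± 0.08 against 7.01 ± 0.12, SD, n = 2, adjusted p = 0.00319), and MUC1, an apical mucin, 15.5-fold higher (9.40 ± 0.12 against 5.45 ± 0.44, adjusted p = 0.0277). The progesterone receptor (PGR) read 8.45 and 8.78 in P114 and was not well above background in either CMT-U27 channel (2.66 and 3.6), which gives a bound of at least 17.3-fold, and the fit's adjusted p was 0.0403. Here and below, such a bound sets the brighter line's mean against the dimmest signals marked well above background on the dimmer line's arrays, or the probe's own signal where that is higher. ESR1 and TP63 did not pass the brightness filter, and KRT8 and MKI67 had no probe under those symbols.

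Genes that maintain the epithelial state were called in the same direction as the junction genes. Of 13 tested epithelial regulators none was called higher in P114 and 9 were called higher in CMT-U27 (5 in the 8-channel fit), with a median of -2.21. EHF, an ETS factor of epithelia, read 6.69 and 5.28 in P114 and 11.63 and 11.64 in CMT-U27, and its 4 probes differed by -10.08 to -5.65, but its P114 channels lay apart and the 8-channel fit gave an adjusted p of 0.0871. ESRP1, which directs epithelial splicing, was 16.5-fold higher in CMT-U27 (6.27 ± 1.18 against 10.32 ± 0.03, SD, n = 2, adjusted p = 0.00689). MAL2, a protein of apical transport, was 13-fold higher, SPINT2, an inhibitor of cell-surface serine proteases, 3.31-fold higher, and the epithelial factor GRHL1 8.28-fold higher. OVOL1 and OVOL2, named after their values were seen, differed by -1.67 and -0.59 and were called in neither fit. Without P114 replicate 1 the differences were -6.36 for EHF, -3.21 for ESRP1 and -2.35 for GRHL1, so the sizes, but not the direction, depend on that array.

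**Figure D2:**
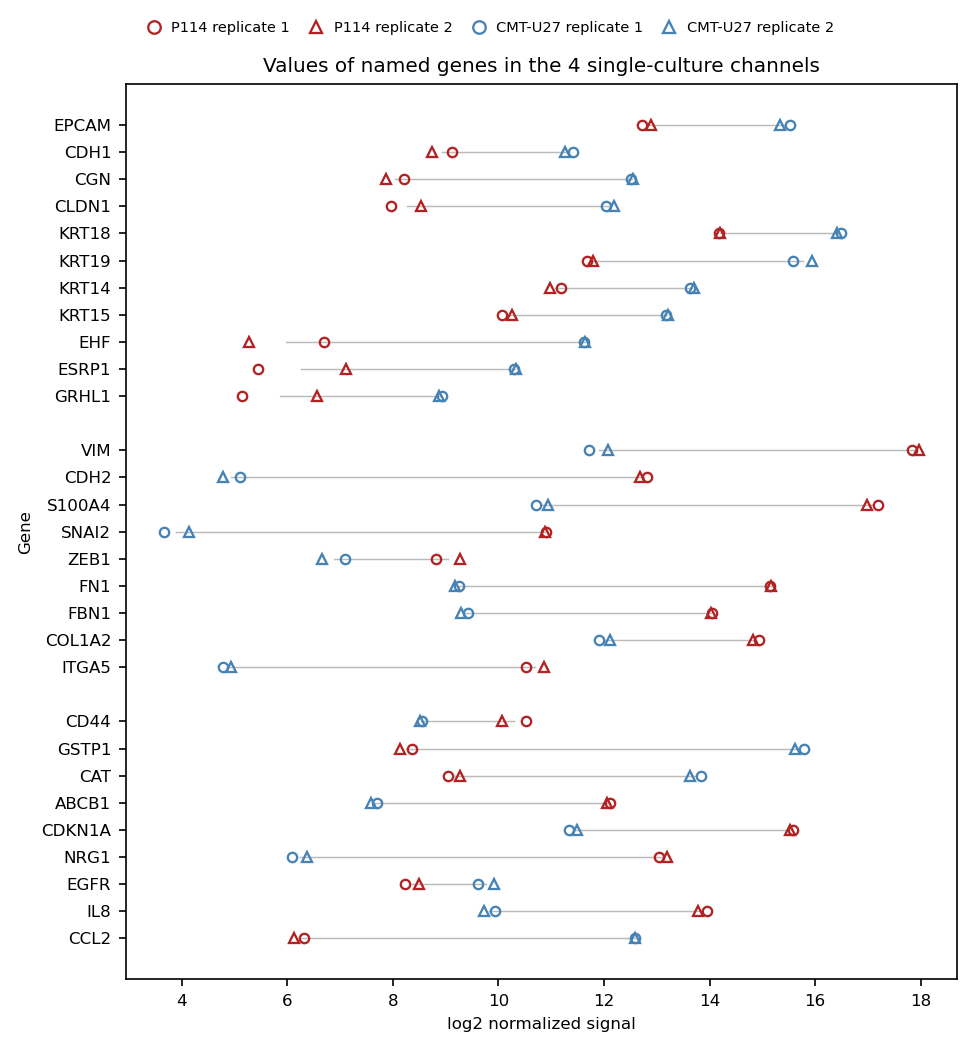
Log2 intensity of selected genes in each of the 4 single-culture channels, with P114 in red and CMT-U27 in blue, circles for replicate 1, triangles for replicate 2 and a grey line joining the means. Channels of a line lie close together for most genes, and the lines do not overlap for EPCAM, CDH1, VIM or CDH2.

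P114 carried the mesenchymal filament, cadherin and matrix genes at far higher levels. Vimentin (VIM) read 17.83 and 17.97 in P114 and 11.71 and 12.08 in CMT-U27, 64-fold higher in P114 (SE 0.10, adjusted p = 0.000277). N-cadherin (CDH2) read 12.81 and 12.69 against 5.10 and 4.79, 224-fold higher (SE 0.23, adjusted p = 0.000461), and its 3 probes gave 4.43 to 7.81. S100A4, a calcium-binding protein of motile cells, read 17.19 and 16.99 against 10.72 and 10.94, 76.8-fold higher (adjusted p = 0.000294). All 3 genes were marked above background in all channels, at levels that did not overlap. CDH2 in CMT-U27 lay close to the lowest signals so marked on CMT-U27 replicates 1 and 2 (4.83 and 4.16), so its fold is uncertain. The repressor SNAI2 read 10.91 and 10.88 in P114 and was not well above background in CMT-U27 (3.66 and 4.14), at least 84.1-fold higher in P114. ZEB1 and TCF4, 2 further factors of the mesenchymal state named after their values were seen, were higher in P114 by 4.51-fold (adjusted p = 0.0138) and by at least 15.3-fold (adjusted p = 0.0415). Like factors of the same list, also named after their values were seen, were called in neither fit: ZEB2 (a difference of -1.66), SNAI1 (0.21) and TWIST2 (1.09). Of 20 tested mesenchymal genes, 8 were higher in P114 and 2 in CMT-U27 (6 and 2 in the 8-channel fit; 10 and 4 without P114 replicate 1), with a median of 0.54. The 2 were TGFBI, a matrix protein induced by TGF-beta, at 47.4-fold (4.24 ± 0.85 in P114, 9.80 ± 0.20 in CMT-U27, SD, n = 2; a difference of -5.57, or -4.96 without P114 replicate 1), and the forkhead factor FOXC2, at 2.12-fold.

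Matrix genes followed. Of 31 tested genes of collagens and other matrix proteins, 17 were higher in P114 and 4 in CMT-U27 (13 and 2 in the 8-channel fit), with a median of 1.53. Fibronectin (FN1) read 15.14 and 15.17 in P114 and 9.25 and 9.17 in CMT-U27, 61.7-fold higher (SE 0.10, adjusted p = 0.000303), with its 5 probes spread from 1.65 to 5.95. Fibrillin-1 (FBN1), the backbone of microfibrils, was 25.5-fold higher, with all 5 probes called. The fibrillar collagen chains COL1A2 and COL5A2 were 7.27-fold and 5.76-fold higher, with all 6 and all 4 of their probes called. Against this direction, EFEMP1 (fibulin-3) read 4.06 ± 0.51 in P114 and 12.86 ± 0.07 in CMT-U27 (SD, n = 2), higher in CMT-U27 on all 3 probes (adjusted p = 0.000321). The probe shown was well above background in 1 of 2 P114 channels, and the bound was at least 441-fold, or 340-fold against P114 replicate 2 alone. Of 11 tested integrin subunits, 7 were higher in P114 and 1 in CMT-U27 (4 and 0 in the 8-channel fit), with a median of 0.44. ITGA5 and ITGB1, which together form the main fibronectin receptor, were at least 56.1-fold (10.69 ± 0.23 against 4.86 ± 0.11, with 1 of 2 CMT-U27 channels well above background) and 5.92-fold higher in P114.

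Genes that break down matrix were split. Of 18 tested metalloproteinases and inhibitors, 4 were higher in P114 and 3 in CMT-U27 (3 and 0 in the 8-channel fit), with a median of -0.16 that ran from -0.28 to 0.44 over the alternative settings and so has no settled sign. TIMP1, an inhibitor of these proteases, was 6.54-fold higher in P114 (14.94 ± 0.06 against 12.23 ± 0.18, SD, n = 2). MMP9, the gelatinase, read 7.90 ± 0.06 in CMT-U27 and 4.79 ± 2.24 in P114, where 1 of 2 channels was well above background, and with the P114 channels this far apart the 8-channel fit gave an adjusted p of 0.0900; without P114 replicate 1 the difference was -4.70 in place of -3.12. Of 9 tested genes of the plasminogen system, which turns plasminogen into the protease plasmin, 4 were higher in each line (4 in P114 and 2 in CMT-U27 in the 8-channel fit). The inhibitor SERPINE2 was 16.4-fold higher in P114, the activator PLAU was 6.10-fold higher in P114, and the inhibitor SERPINB5 (maspin) was 3.11-fold higher in CMT-U27.

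**Figure D3:**
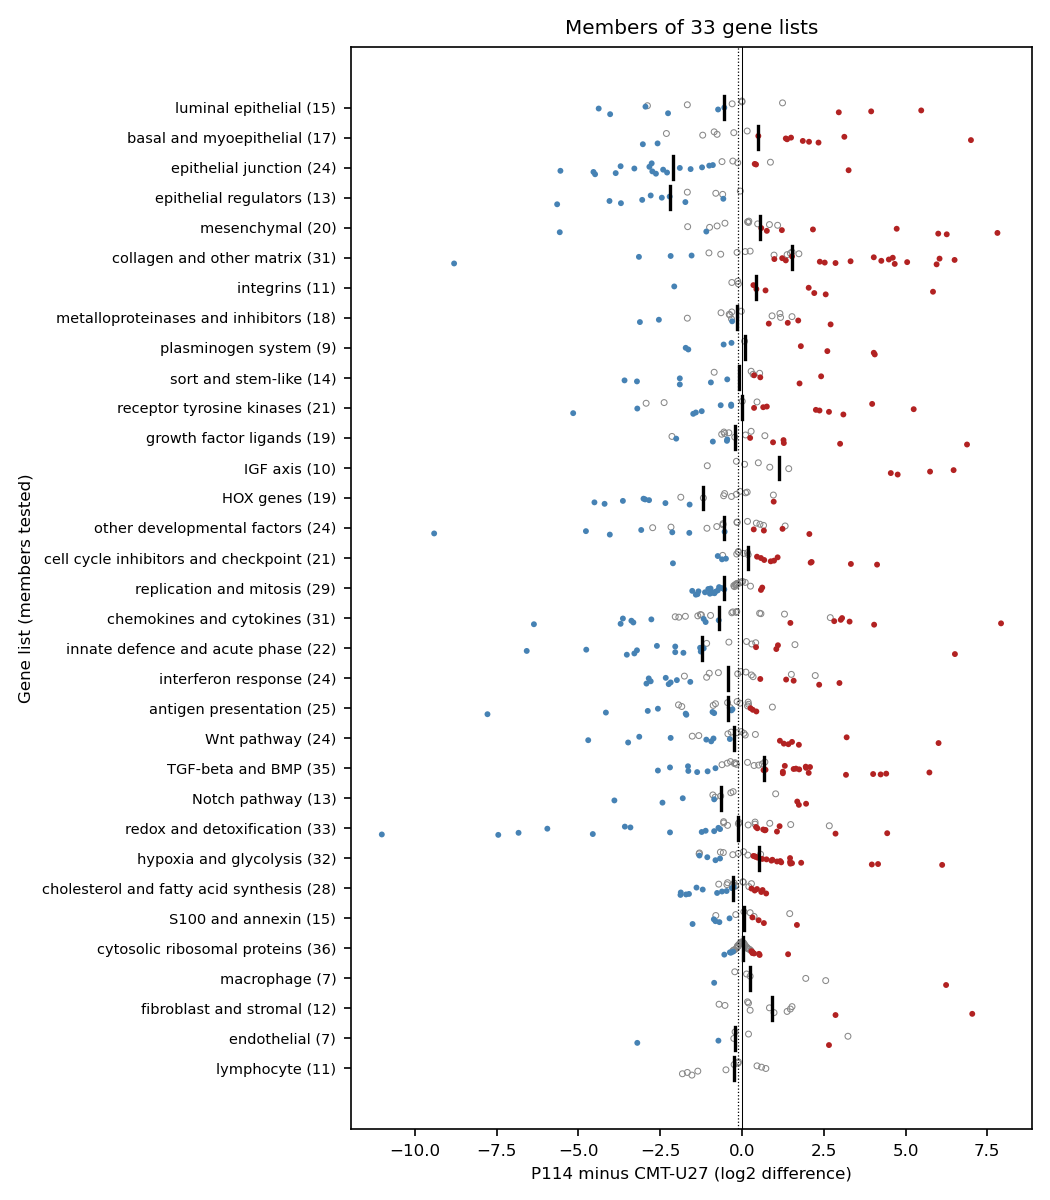
Log2 difference, P114 minus CMT-U27, of each tested gene in each list, with filled points for called genes, open points for the others, a black bar at the list's median, a solid line at 0 and a dotted line at the median of all genes, -0.11. The lists of epithelial junctions and epithelial regulators lie to the CMT-U27 side with medians of -2.10 and -2.21, and that of collagens and matrix lies to the P114 side with a median of 1.53.

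The sort markers themselves differed between the sorted cells. CD44 read 10.53 and 10.06 in P114 and 8.56 and 8.52 in CMT-U27, 3.38-fold higher in P114 and without overlap, but the 8-channel fit gave an adjusted p of 0.101. EPCAM went the other way, as given above. Of 14 tested sort and stem-like genes, 4 were higher in P114 and 6 in CMT-U27 (0 and 3 in the 8-channel fit), and the median of -0.09 changed sign over the alternative settings (-0.45 to 0.28). The aldehyde dehydrogenases ALDH1A1 and ALDH1A3, whose activity is used to find stem-like cells, were higher in CMT-U27 (adjusted p = 0.0251 and 0.0495). Each was well above background in 1 of 2 P114 channels, replicate 1, with bounds of at least 7.97-fold and 10.5-fold, or 8.10-fold and 6.89-fold against P114 replicate 2 alone. SOX9, a transcription factor of mammary progenitors, was 3.74-fold higher in CMT-U27 (10.52 ± 0.33 against 12.42 ± 0.10, SD, n = 2, adjusted p = 0.00688). MYC read 11.71 and 11.27 in P114 and 11.18 and 11.07 in CMT-U27, a difference of 0.37 that was called in the 4-channel fit but had an adjusted p of 0.650 in the 8-channel fit and of 0.517 without P114 replicate 1.

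Among growth factor genes, the ERBB family ligands named here were higher in P114, except HBEGF. Neuregulin-1 (NRG1), a ligand of ERBB3 and ERBB4, read 13.04 and 13.19 in P114 and 6.10 and 6.37 in CMT-U27, 118-fold higher in P114 (SE 0.17, adjusted p = 0.000277), and both of its probes were called. Epiregulin (EREG), a ligand of EGFR, was 8-fold higher in P114 (11.99 ± 0.00 against 8.99 ± 0.11, SD, n = 2, adjusted p = 0.00179). HBEGF, another EGFR ligand, was 1.86-fold higher in CMT-U27, with an adjusted p of 0.124 in the 8-channel fit. Over 19 tested ligands, 6 were higher in P114 and 4 in CMT-U27 (3 and 0 in the 8-channel fit), with a median of -0.22 that changed sign between settings (-0.37 to 0.29). Among the receptors, EGFR read 8.23 and 8.49 in P114 and 9.62 and 9.92 in CMT-U27, 2.67-fold higher in CMT-U27, with an adjusted p of 0.252 in the 8-channel fit. ERBB2, the HER2 receptor, did not pass the test in either fit (8.73 ± 0.51 in P114, 9.03 ± 0.31 in CMT-U27), and its difference of -0.30 became 0.06 without P114 replicate 2 and -0.66 without P114 replicate 1, where it was called (limma adjusted p = 0.0137). ERBB3, named after its values were seen, has 2 probes that disagreed: the brighter gave a difference of 0, and the other, at 3.49 and 2.68 in P114 and 6.30 and 6.39 in CMT-U27, gave -3.26 and was called higher in CMT-U27.

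Of 21 tested receptor tyrosine kinases, 9 were higher in P114 and 8 in CMT-U27 (5 and 4 in the 8-channel fit). ROR2, a receptor of WNT5A, was 8.56-fold higher in P114 (9.47 ± 0.24 against 6.37 ± 0.02, SD, n = 2), and the collagen receptor DDR2, named after its values were seen, at least 7.44-fold higher. NTRK2, the receptor of brain-derived neurotrophic factor, was at least 16.9-fold higher in CMT-U27 (3.39 ± 1.56 against 8.55 ± 0.03, SD, n = 2, adjusted p = 0.00938), being well above background in 1 of 2 P114 channels. In the insulin-like growth factor axis, 4 of 10 tested genes were higher in P114 and none was called higher in CMT-U27 in either fit, with a median of 1.14. IGFBP7 and IGFBP4, secreted proteins of the binding-protein family, were 27.1-fold (13.74 ± 0.21 against 8.98 ± 0.16) and 23.3-fold (10.46 ± 0.24 against 5.92 ± 0.01) higher in P114. The non-coding RNA H19 read 9.62 and 9.61 in P114 and 3.38 and 4.34 in CMT-U27, well above background in 1 of these 2, at least 32.6-fold higher in P114 (adjusted p = 0.0352), and IGF2BP1, an RNA-binding protein, was at least 20.2-fold higher. IGF2, the imprinted neighbour of H19, did not pass the test, with 4.38 ± 2.30 in P114 and 3.88 ± 0.19 in CMT-U27; the difference was 2.13 without P114 replicate 1, where it was called (limma adjusted p = 0.00774), and -1.13 without P114 replicate 2.

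TGF-beta and BMP genes were more often higher in P114: 17 of 35 tested genes against 7 higher in CMT-U27 (9 and 3 in the 8-channel fit), with a median of 0.66. The receptor TGFBR2 was 9.05-fold higher in P114 (14.52 ± 0.05 against 11.34 ± 0.10, SD, n = 2, adjusted p = 0.000398), with all 3 probes called. Among the ligands, BMP4 was 16.1-fold and INHBA, a subunit of activin, 21.2-fold higher in P114, and LTBP1, which stores latent TGF-beta in the matrix, was 18.8-fold higher on all 4 probes. SMAD4, the shared signal transducer of the family, was 2.59-fold higher in CMT-U27 (adjusted p = 0.0496). In the Wnt list 7 of 24 tested genes were higher in P114 and 8 in CMT-U27 (5 and 3 in the 8-channel fit), with a median of -0.24. The ligands led the P114 side: WNT7A, well above background in 1 of 2 CMT-U27 channels, was at least 39.5-fold higher there (9.93 ± 0.08 against 3.92 ± 0.69, adjusted p = 0.00306), and WNT5A 2.42-fold higher. The receptor FZD1 was 11.2-fold higher in CMT-U27, with a difference of -3.48, or -4.15 without P114 replicate 1. Of 13 tested Notch genes, 3 were higher in P114 and 4 in CMT-U27 (2 in each in the 8-channel fit), with the ligand JAG2 3.90-fold higher in P114 and the target HEY1 5.37-fold higher in CMT-U27.

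The lines also differed in the homeobox genes that record position in the embryo. Of 19 tested HOX genes, 8 were higher in CMT-U27 and 1 in P114 (8 and 0 in the 8-channel fit), with a median of -1.18. HOXA6 read 5.49 ± 0.72 in P114 and 9.69 ± 0.03 in CMT-U27 (SD, n = 2), 18.4-fold higher in CMT-U27 (adjusted p = 0.00318). HOXA3, HOXB6 and HOXB7 were 22.7-fold, 5.06-fold and 3.03-fold higher there. For HOXA3 the P114 channels lay apart, and the difference of -4.51 became -3.26 without P114 replicate 1. The single gene higher in P114, HOXB1, differed 1.96-fold and did not pass the 8-channel fit (adjusted p = 0.138). Among 24 other tested developmental factors, 4 were higher in P114 and 7 in CMT-U27 (1 and 4 in the 8-channel fit), with a median of -0.55 that ran from -0.78 to 0.10. EYA2, a transcriptional coactivator, read 11.83 and 11.60 in CMT-U27 and was not well above background in P114 (2.05 and 2.55), at least 353-fold higher in CMT-U27, or 154-fold against P114 replicate 2 alone. IRX2, an Iroquois homeobox factor, was 16.4-fold higher in CMT-U27, and PAX6, a paired-box factor, 4.17-fold higher in P114.

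Replication and mitosis genes were more often higher in CMT-U27, by modest folds. Of 29 tested genes, 15 were higher in CMT-U27 and 2 in P114 (8 and 0 in the 8-channel fit), with a median of -0.54 and no member beyond -1.52. BUB1, a spindle checkpoint kinase, was 2.67-fold higher in CMT-U27 (12.67 ± 0.21 against 14.08 ± 0.03, SD, n = 2, adjusted p = 0.00568), and TYMS, which makes thymidylate, 2.56-fold higher. CDT1, a replication licensing factor, was 1.97-fold higher, with an adjusted p of 0.0989 in the 8-channel fit. MCM2, a subunit of the replicative helicase named after its values were seen, differed by -1.13, and by -0.58 without P114 replicate 1.

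Inhibitors and checkpoint genes were called higher in P114 in 10 of 21 cases and in CMT-U27 in 4 (4 and 1 in the 8-channel fit), with a median of 0.19 that ran from -0.07 to 0.39. CDKN1A, which encodes the cell cycle inhibitor p21, was read by 3 probes that gave different answers, and their leading 30 bases are shown in genome order for that reason.
CDKN1A upstream probe: ggaccacctggacctgtcgctgacctgcac
CDKN1A middle probe: acaaggagtcagatgttttaagatagcaga
CDKN1A downstream probe: tcccgcagtgctgggtacacagcaggtgct
The downstream probe, at chr12:5755048-5755107 on the plus strand, read 15.58 and 15.52 in P114 and 11.34 and 11.49 in CMT-U27, 17.6-fold higher in P114 (SE 0.10, adjusted p = 0.000277). The middle probe, at chr12:5754761-5754820, read 14.79 and 14.81 against 10.65 and 10.72, a difference of 4.12. The upstream probe, at chr12:5752055-5752114, read 12.07 and 11.73 against 11.76 and 12.32, a difference of -0.14 with overlapping lines. The middle and downstream probes thus gave the same difference, and the one farther upstream, which holds 68.3% G and C, shows no called difference. MDM2, which marks p53 for degradation, was 4.28-fold higher in P114, and CCND2, cyclin D2, 10.0-fold higher (11.96 ± 0.34 against 8.63 ± 0.12). CCNE2, cyclin E2, was 4.33-fold higher in CMT-U27 (8.84 ± 0.01 against 10.95 ± 0.23, adjusted p = 0.00302). CDKN2A had no probe under its symbol.

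Genes of redox defence and detoxification held some of the widest differences in both directions. Of 33 tested genes, 9 were higher in P114 and 13 in CMT-U27 (4 and 10 in the 8-channel fit), with a median of -0.11 that ran from -0.41 to 0.19. GSTP1, a glutathione transferase, read 8.37 and 8.13 in P114 and 15.78 and 15.62 in CMT-U27, 175-fold higher in CMT-U27 (SE 0.11, adjusted p = 0.000221). The microsomal transferase MGST1 read 14.52 and 14.34 in CMT-U27 and 4.72 and 2.11 in P114, where only replicate 1 was marked above background, at least 916-fold higher in CMT-U27, with a difference of -11.01, with its 3 probes at -11.61 to -11.01, and of -12.32 without P114 replicate 1. Catalase (CAT) was 23.5-fold higher in CMT-U27 and the glutathione peroxidase GPX2 differed by -6.83 (5.03 ± 0.15 in P114, 11.86 ± 0.10 in CMT-U27, SD, n = 2). On the P114 side, the drug efflux pump ABCB1 was 21.7-fold higher (12.08 ± 0.05 against 7.64 ± 0.09, adjusted p = 0.000461), on all 3 probes. ALDH3A1, an aldehyde dehydrogenase, was higher in P114 on both probes but by very different amounts, and their leading bases are shown for that contrast.
ALDH3A1 upstream probe: aatgacaagatgattaagaagatgattgca
ALDH3A1 downstream probe: aagaaaagctttgagaccttctcccactgc
The upstream probe, which spans chr5:40472950-40473369, read 13.94 and 14.35 in P114 and 4.58 and 5.13 in CMT-U27, a difference of 9.29. The downstream probe, at chr5:40473865-40473924, read 15.09 and 15.40 against 12.28 and 12.49, a difference of 2.86 (adjusted p = 0.0107).

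Hypoxia and glycolysis genes were more often higher in P114, with 19 of 32 tested against 4 higher in CMT-U27 (11 and 2 in the 8-channel fit) and a median of 0.52. Stanniocalcin-1 (STC1), a secreted hormone, read 14.13 and 14.34 in P114 and 8.17 and 8.06 in CMT-U27, 69.7-fold higher (SE 0.12, adjusted p = 0.000277), on all 3 probes. CA9, a carbonic anhydrase induced by low oxygen, was 17.9-fold higher (12.09 ± 0.22 against 7.93 ± 0.02, SD, n = 2), and adrenomedullin (ADM) 15.7-fold higher. LDHA, which makes lactate, was 2.10-fold higher, with an adjusted p of 0.157 in the 8-channel fit. Cholesterol and fatty acid synthesis leaned the other way: 11 of 28 tested genes were higher in CMT-U27 and 6 in P114 (4 and 2 in the 8-channel fit), with a median of -0.27. HMGCS1, an early enzyme of cholesterol synthesis, was 3.69-fold higher in CMT-U27 (adjusted p = 0.0326) and INSIG1, a sterol sensor partner, 3.06-fold higher (adjusted p = 0.00474), each with all 3 of its probes called. Of 36 tested cytosolic ribosomal protein genes, 7 were called higher in P114 and 4 in CMT-U27, and none in the 8-channel fit, with a median of 0.03 (-0.07 to 0.37 over the settings) and no member beyond 1.41. Of 15 tested S100 and annexin genes, 4 were higher in P114 and 5 in CMT-U27 (1 and 2 in the 8-channel fit).

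Inflammatory genes differed strongly but not in one direction. Of 31 tested chemokines and cytokines, 7 were higher in P114 and 9 in CMT-U27 (6 and 3 in the 8-channel fit; 9 and 14 without P114 replicate 1), with a median of -0.71. Interleukin-8 (IL8), which draws neutrophils, was 16.4-fold higher in P114 (13.86 ± 0.12 against 9.83 ± 0.16, SD, n = 2, adjusted p = 0.0160), on all 4 probes. CCL2, which draws monocytes, read 6.31 and 6.13 in P114 and 12.58 and 12.59 in CMT-U27, 82.3-fold higher in CMT-U27 (SE 0.19, adjusted p = 0.000740), though its other probe gave -2.11 and was not called. Osteopontin (SPP1) read 11.52 and 11.61 in P114 and was not well above background in CMT-U27 (3.87 and 3.42), at least 134-fold higher in P114. MIF, the macrophage migration inhibitory factor, read 8.17 ± 0.25 in P114 and 11.88 ± 0.33 in CMT-U27, with an adjusted p of 0.0717 in the 8-channel fit. These genes encode signals to myeloid cells, and the largest of them fell on opposite sides.

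Innate defence genes were more often higher in CMT-U27: 12 of 22 tested, against 4 in P114 (8 and 2 in the 8-channel fit), with a median of -1.21. The bacterial lipoprotein receptor TLR2 was at least 46.0-fold higher in CMT-U27 (8.71 ± 0.09, SD, n = 2), not being well above background in P114 by this probe, or 19.1-fold against P114 replicate 2 alone, and the alarmin S100A8 was 11.5-fold higher (8.43 ± 0.05 against 11.95 ± 0.04). The acute-phase gene SAA1 was 3.46-fold higher in CMT-U27 by its brightest probe (9.34 ± 0.08 against 11.13 ± 0.09, adjusted p = 0.0188), while its 4 probes ran from -5.84 to -0.20. Against this, PTGS2, the inducible cyclooxygenase, was at least 91.2-fold higher in P114 (11.27 ± 0.08 against 4.76 ± 0.20, adjusted p = 0.000461), with 1 of 2 CMT-U27 channels well above background. Antigen presentation genes were called higher in CMT-U27 in 10 of 25 cases and in P114 in 3 (5 and 0 in the 8-channel fit), with a median of -0.44. B2M, the light chain of MHC class I, was 3.24-fold higher in CMT-U27 (adjusted p = 0.00520), and PSMB9, a subunit of the immunoproteasome, 3.30-fold higher. The class II gene named HLA-DRB1 in the files read 10.35 and 10.27 in CMT-U27 and was not well above background in P114 (2.36 and 2.70) by this probe, at least 120-fold higher, or 57.9-fold against P114 replicate 2 alone. CD74, the class II invariant chain, was well above background in 1 of 2 P114 channels and at least 15.5-fold higher in CMT-U27. Of 24 tested interferon response genes, 5 were higher in P114 and 8 in CMT-U27 (3 and 4 in the 8-channel fit), with a median of -0.43 that ran from -0.88 to 0.16. OAS1 and OAS2, sensors of double-stranded RNA, were 7.88-fold and 5.12-fold higher in P114, whereas IFI6 and ISG15 were 7.55-fold and 2.99-fold higher in CMT-U27, the last named after its values were seen.

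Markers of other cell types were examined in the same channels, and their part in the results above was not tested. Of 22 macrophage markers on the array, 7 were well above background by at least 1 probe on P114 replicate 2, 3 and 6 on CMT-U27 replicates 1 and 2, and 21 on P114 replicate 1, the array on which nearly all spots passed. The defining markers CSF1R, C1QC, SPI1 and FCER1G were not well above background on any channel other than P114 replicate 1, where C1QC read 7.95 and SPI1 8.11, against 4.18 and 3.81 on P114 replicate 2. CD163, the scavenger receptor of macrophages, was above background in both P114 channels on its tested probe (3.63 and 5.24) and in neither CMT-U27 channel (2.76 and 2.20), and it did not pass the test. CD14 was above background in all 4 channels (6.77 and 7.51 in P114, 6.84 and 7.16 in CMT-U27). The summed level of the macrophage list on the log2 scale was 11.47 and 10.97 in P114 and 10.58 and 10.91 in CMT-U27. Of 7 tested macrophage markers, 1, the costimulatory ligand CD86, was called higher in P114, at least 32.7-fold, and 1, CD68, in CMT-U27 (1 and 0 in the 8-channel fit).

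The summed level of the fibroblast and stromal list was higher in P114, at 15.11 and 15.02 against 12.40 and 12.57 in CMT-U27, and COL1A2, given above with the matrix genes, was its brightest member (14.93 and 14.82 against 11.91 and 12.12). Of 12 tested members, 2 were called higher in P114, COL1A2 and podoplanin (PDPN, at least 95.0-fold), and none in CMT-U27; without P114 replicate 1, 6 were called higher in P114. COL1A1 read 6.40 and 7.47 in P114 and 6.56 and 5.36 in CMT-U27, and decorin (DCN) read 2.87 and 4.96 in P114 on its tested probe, was not well above background in CMT-U27 and did not pass the test. Endothelial sums were 12.23 and 11.78 in P114 and 11.94 and 12.36 in CMT-U27, and lymphocyte sums 8.96 and 9.30 against 9.29 and 9.76, so for both lists the lines overlapped or lay close. In bulk RNA, a share of cells of another type and the level per cell cannot be told apart.

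The widest differences lay in genes with one line near background. Among genes well above background in both lines, DPYSL3, a cytoskeletal protein of neurons and migrating cells, read 15.39 and 15.51 in P114 and 4.96 and 4.68 in CMT-U27, 1580-fold higher in P114 (SE 0.15, adjusted p = 0.000128). Behind CDH2 came TMEFF2, a membrane protein with follistatin domains, at 162-fold, and then, after NRG1, the matrix protein THBS3 at 96.6-fold. Like CDH2, DPYSL3 and THBS3 (5.15 and 4.92) lay in CMT-U27 close to the lowest signals marked well above background on replicates 1 and 2 (4.83 and 4.16). Their folds are therefore uncertain. FSCN1, the actin-bundling protein fascin, was 58.2-fold, the TNF family ligand CD70 46.4-fold and RCN1, a calcium-binding protein of the endoplasmic reticulum, 45.8-fold higher in P114. On the CMT-U27 side, after GSTP1, creatine kinase B (CKB) read 3.57 and 5.50 in P114 and 11.76 and 12.13 in CMT-U27, a 170-fold difference. Without P114 replicate 1 the difference was -6.44 for CKB, in place of -7.41, and -5.72 for ADCY3, in place of -6.69. The cyclase ADCY3 was 103-fold, the cysteine dioxygenase CDO1 95.3-fold and the mitochondrial aldehyde dehydrogenase ALDH2 54.4-fold higher in CMT-U27. The other probe of ADCY3 differed by -2.50 and was not called.

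Of the 10258 genes, 351 were not well above background in CMT-U27 and 59 were not in P114 by the probe shown (331 and 30 by all their probes). A further 352 genes were so marked in 1 of 2 P114 channels, 351 of them on replicate 1 only, and 467 in 1 of 2 CMT-U27 channels. The contrast between the lines thus depends on the marks of P114 replicate 1 and is not read as more genes being silent in CMT-U27. The widest bounds on the P114 side were at least 385-fold for LIPA, the lysosomal acid lipase, at least 326-fold for MINPP1, an inositol phosphatase, and at least 300-fold for GALNT15, a glycosyltransferase. LIPA read 13.13 and 13.04 in P114 and 2.56 and 2.29 in CMT-U27, and its 4 probes were all called, at 2.24 to 10.66, with up to 2 of them well above background on a CMT-U27 array; without P114 replicate 1 its brightest tested probe was another, with a difference of 2.91. On the CMT-U27 side they were at least 690-fold for BPI, an antibacterial protein, at least 361-fold for TAC1, the precursor of substance P, and at least 353-fold for EYA2. Taken against P114 replicate 2 alone, these 3 bounds were 328-fold, 182-fold and 154-fold, and another probe of TAC1 was well above background on that array. GPR110, an adhesion receptor, was at least 200-fold and the tetraspanin TSPAN8 at least 100-fold higher in CMT-U27, or 83.2-fold and 45.3-fold against P114 replicate 2 alone.

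Some neighbouring genes differed together, as a description made after the values were seen. Over all placed transcripts, 4% were at least 4-fold higher in P114 and 5.17% in CMT-U27. Around the BEX and TCEAL genes of chromosome X, chrX:76274141-76755740, 9 of 12 transcripts were at least 4-fold higher in CMT-U27, with BEX4 at 7.15 and 5.64 in P114 and 11.15 and 10.94 in CMT-U27, and TCEAL8 at 3.96 and 6.41 against 11.30 and 11.14. The TCEAL8 difference of -6.04 was -4.81 without P114 replicate 1. In the type I keratin cluster, chr9:21152377-21265549, 9 of 10 transcripts were at least 4-fold higher in CMT-U27, KRT14, KRT15 and KRT19 among them. In the desmosomal cadherin cluster of chromosome 7 this held for 3 of 4 transcripts, and among the class II genes of chromosome 12 for 3 of 5. Other neighbours were higher in P114. They included 6 transcripts at chr26:37627507-37916057, with MINPP1 (median difference 5.17), and 5 at chr13:62438080-62877040, with IL8 and EREG (median 3.16). SGMS1, STAMBPL1 and LIPA also lie on chromosome 26, at 37244361, 38693711 and 38892776. By the probe shown, they and MINPP1 were not well above background in CMT-U27. Across the genome, 18 runs of at least 4 neighbouring transcripts were at least 4-fold apart in the same direction. Many of these transcripts carry no gene symbol, and some runs held 1 named gene or none. The run with OXCT1, for example, spans only chr4:67841650-67843604. Whether transcripts of a run belong to the same gene was not tested, so a run need not hold several genes.

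Whole chromosomes also differed by small amounts. Over all transcripts well above background in both lines, the median difference was -0.11, and 22.2% were called higher in P114 and 24.7% in CMT-U27. The median was 0.30 for the 318 on chromosome 13, of which 42.8% were called higher in P114 and 11.6% in CMT-U27. The median was -0.67 for the 578 on chromosome 17, -0.62 for the 179 on chromosome 31 and -0.52 for the 442 on chromosome 26, where 43.7% were called higher in CMT-U27 and 8.82% in P114. For these 4 chromosomes the medians taken from the Cy3 channels alone were 0.33, -0.51, -0.38 and -0.41, and from the Cy5 channels alone 0.24, -0.72, -0.66 and -0.58, so both dyes gave the same sign. Over all these transcripts the median was -0.01 from the Cy3 and -0.17 from the Cy5 channels.

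**Figure D4:**
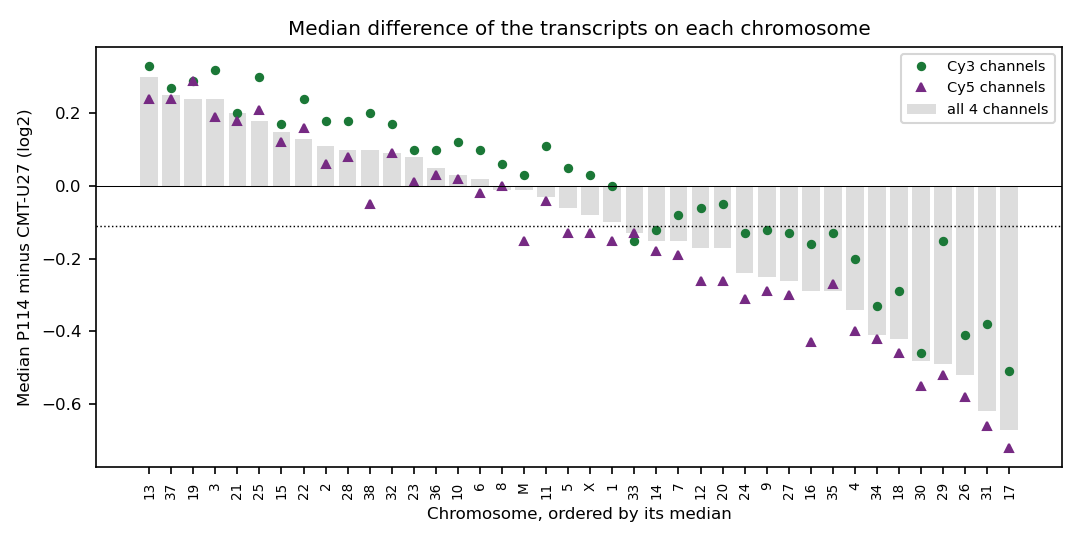
Median log2 difference, P114 minus CMT-U27, of the transcripts on each chromosome that were well above background in both lines, as grey bars for all 4 channels, circles for the Cy3 and triangles for the Cy5 channels, and a dotted line at the median of all, -0.11. Chromosome 13 has the highest median, at 0.30, and chromosome 17 the lowest, at -0.67.

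In the co-culture channels of the same 4 arrays, 4816 probes were called higher in P114 and 5672 in CMT-U27 of 27993 tested. Each co-culture channel shares its array with a single-culture channel, so the values are only set side by side. VIM differed by 6 in single culture and 5.96 in co-culture, EPCAM by -2.63 and -2.71, CDH2 by 7.81 and 6.74, and GSTP1 by -7.45 and -7.23. For DPYSL3 the CMT-U27 mean was 4.82 in single culture and 6.87 in co-culture, and the line difference 10.63 and 8.70. SAA1 differed by -1.79 in single culture and -6.10 in co-culture, and CCL2 by -6.36 and -6.98. Whether any of these differences changed between the cultures was not tested here.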

How the data were processed

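Total RNA of 4 single-culture and 4 co-culture samples was hybridised to 4 two-colour arrays of Agilent canine design 021193. The deposited files hold scanner intensity values per spot in both channels, per the file headers from Agilent Feature Extraction 10.10.1.1 (10.7.3.1 per the submitters' processing notes), already background-subtracted and dye-normalised by the authors' software; the labels' protocol names a miRNA labelling kit. From these, control and marked spots were left out, processed signals were normalised by Aquantile between arrays with limma 3.58.1 in R 4.3.3, and spots of a probe were averaged as log2 values. Loess within arrays was used only in the alternative with normexp background correction. Probes well above background in both channels of at least 1 line were tested with lmFit and eBayes (intensity trend, dye term, Benjamini-Hochberg adjustment over all probes, threshold 0.05). A run on simulated data set the spread by brightness alone, alike in both lines, as the fit assumes. It cannot show how the fit acts where spread differs between lines or between probes of like brightness. A gene is shown by its brightest tested probe. Of 13363 symbols in the files, 12214 stood in the RefSeq table.

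Of 952 listed genes in 33 lists, 802 were on the array and 658 tested. Named were the 12 largest differences in each direction, with both lines above background or with 1 below it, the 5 members a list with the lowest p, and fixed markers; others are said to be named after their values were seen, and a few genes are not reported here. Members and lists were chosen with earlier results of these data known. Bounds take, per array, the higher of the dim probe's signal and the lowest signal of a probe well above background. The number of arrays limits the precision. Alternatives covered background correction, scaling, filter, dye term, fit, each array left out, and turned dye labels.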

Additional observations from a re-analysis of the deposited data

How the results depend on the processing

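The count of calls depended on the fit, while directions mostly did not. Probes higher in P114 and in CMT-U27 numbered 1790 and 2080 in the 8-channel fit (1557 and 1799 at least 2-fold), 1088 and 1164 with median centring (all of them at least 2-fold) and 0 and 0 without an intensity trend in limma, where 8982 probes had an unadjusted p under 0.05. With normexp background correction 1524 and 1503 were at least 2-fold. Of the distinct list genes, 385 were called, against 207 in the 8-channel fit, 134 with median centring and 0 without the trend. Leaving out each array in turn gave 3974 to 9900 probes higher in P114 (2182 to 7110 at least 2-fold) and 3990 to 10431 in CMT-U27 (2100 to 7298). The highest counts came without P114 replicate 2, where 40137 probes passed the brightness filter; without P114 replicate 1 they were 6207 and 6422. Scaling to the 75th percentile moved the median of all probes from -0.11 to 0.13 and the share of calls higher in P114 from 46.5% to 53.4%, and median centring moved the median to -0.27.

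Of 200 named genes, 9 changed sign under at least 1 setting, 3 of them called. Signs turned for ITGB2 (-0.03) and MCAM (-0.14) with median centring, for NRARP (-0.65) with the other channel of P114 replicate 1, and for RPL15 (0.46) and PECAM1 (0.49) by the median of their probes. With each array left out in turn, values ran from -1.77 to 5.16 for NRARP and -0.60 to 1.09 for ITGB2, turning without P114 replicate 1. They ran from -0.66 to 0.06 for ERBB2, -1.13 to 2.13 for IGF2 and -0.51 to 0.01 for VWF, turning without P114 replicate 2, and from -0.17 to 2.93 for COL3A1, turning without CMT-U27 replicate 2. The cause was not tested. No paired analysis was possible because the replicate numbers follow accession order and pair no samples across the lines.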

Other observations

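Single bright spots set some values. NRARP, a Notch target, read 12.40 on P114 replicate 1 and 5.47 on P114 replicate 2, against 7.12 and 7.37 in CMT-U27, and its direction turned without P114 replicate 1. TP53I11 read 6.86 and 16.43 on the 2 CMT-U27 arrays and was not well above background in P114. More than 16-fold higher on P114 replicate 1 than on replicate 2 were 81 probes, and 1 probe was so the other way, while 27 probes lay as far apart between the CMT-U27 arrays. Of the 81, 18 were also as far apart in the co-culture channels of the same arrays. The median difference between the lines over all probes ran from -0.39 in the dimmest of 5 equal bins of probes to -0.03 in the brightest.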
